A study of Homo sapiens with 2 samples.

Results

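The cluster of miR-506 to miR-514 is a run of microRNA (miRNA) hairpins on the X chromosome. Its mature miRNAs were followed in A375 cells, an established human melanoma line, where small RNA sequencing had been used to measure all miRNAs. Members were all rows whose mature name belongs to miR-506, miR-507, miR-508, miR-509, miR-510, miR-513a, miR-513b, miR-513c, miR-514a or miR-514b, with every arm and copy. They were 20 of the 1497 mature names in the table. The cells had been seeded in 10 cm dishes, given DMSO, the solvent used as vehicle, 24 h later, and harvested after 48 h. All samples given here belong to this 1 group, with 2 libraries of 10816826 and 15428446 read assignments that the labels call independent replicates. No treatment was set against another, so the error of each value is the spread between these libraries, which may be partly technical.

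A miRNA hairpin is cut into a short duplex, and usually 1 of its arms (5p or 3p) is kept as the guide that finds messenger RNAs through its seed, bases 2 to 8 from the 5′ end. This cluster evolves fast among mammals, is expressed mainly in testis among normal tissues, and is known to be raised in most melanomas, where it has been reported to promote melanocyte transformation and melanoma growth. In melanoma cells miR-514a has also been reported to repress the tumour suppressor NF1 and to alter sensitivity to BRAF inhibition.

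RefSeq (GRCh38.p14) holds the mature sequences of 18 of the 20 members. Several 3p arms, the leading ones among them, are shown first with the seed in capitals, because most of these differ in seed while sharing their last bases. MiR-509-3p does not share them, nor does miR-513a-3p, which is not shown.
miR-509-3p: uGAUUGGUacgucuguggguag
miR-508-3p: uGAUUGUAgccuuuuggaguaga
miR-514a-3p: aUUGACACuucugugaguaga
miR-514b-3p: aUUGACACcucugugagugga
miR-510-3p: aUUGAAACcucuaagagugga
miR-506-3p: uAAGGCACccuucugaguaga
The stretch GAGUNGA, where N is any base, closes 5 of these arms, those of miR-506, miR-508, miR-510, miR-514a and miR-514b. It occurs in 0.633% of the 2370 mature human names in RefSeq.

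The 5p arms form other sets of relatives, with those of the miR-513a, miR-513b and miR-513c hairpins as a set of their own. They are shown because the miR-509 copies differ in this arm, which sets MIR509-3 apart, while the copies of miR-514a and of miR-513a share theirs.
miR-509-5p: uACUGCAGacaguggcaauca
miR-509-3-5p: uACUGCAGacguggcaaucaug
miR-508-5p: uACUCCAGagggcgucacucaug
miR-514a-5p: uACUCUGGagagugacaaucaug
miR-513c-5p: uUCUCAAGgaggugucguuuau
miR-513b-5p: uUCACAAGgaggugucauuuau
miR-513a-5p: uUCACAGGgaggugucau
The letters CAAUCA lie in 5 members, the 5p arms of miR-509 (both versions), miR-510, miR-514a and miR-514b, and in 9 of the 2370 RefSeq names in all. They are the reverse complement of UGAUUG, which opens miR-508-3p and miR-509-3p. UGAUUG was found in 8 of the cluster's 14 hairpins with a RefSeq sequence, against 3.27% of the 1562 human hairpins there. In 4 of the 8, those of miR-508 and miR-509, the annotated 3p arm begins at the first letter of UGAUUG. In the other 4, those of miR-510 and miR-514a, it begins 2 bases later, which gives these arms another seed from similar letters. GGAGGUGUC occurs in the 5p arms of miR-513a, miR-513b and miR-513c and in no other of the 2370 names. The stretches were picked from the members' own sequences, and some of the hairpins are copies of each other. The shares among all names or hairpins are therefore no test. These matches describe the letters on the mature or hairpin strand and say nothing of function.

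In GENCODE 29 (GRCh38) the cluster has 15 hairpin genes, all on the minus strand of chromosome X, at chrX:147189704-147284728, a stretch of 95 kb. None lies inside an annotated gene on its own strand. The long noncoding gene AL589669.1 runs on the opposite strand from 147181064 to 147271894, and 11 of the hairpins, from MIR513C to MIR509-1, lie in its introns. The authors' build is not given in the sources used here, so positions are those of GENCODE. The nearest protein-coding genes are CXorf51A, 0.375 Mb before the cluster in chromosome coordinates, and FMR1, the gene of fragile X syndrome, 0.627 Mb after it.

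The cluster was a small part of the miRNA pool, and 3 of its 3p arms made up most of it. Levels are in RPM, here the authors' reads per 1000000 read assignments, where 1 read was worth 0.0924 RPM in replicate 1 and 0.0648 RPM in replicate 2. The 20 members summed to 559 RPM in replicate 1 and 598 RPM in replicate 2 (578 ± 27.6, SD, n = 2), or 0.0742% ± 0.00306 of all RPM after copies of a name were reduced to the highest. In RNA of bulk cells a low level in all cells and a higher one in few cannot be told apart. Of the 20, 8 reached 10 RPM in both libraries, against 22.4% of the 1497 mature names. Another 6 had a mean from 1 to 10 RPM, and 6 stood below 1 RPM. The 3 leading members held 82.1% of the cluster's RPM in replicate 1 and 82.8% in replicate 2. The 8 members at 10 RPM spanned 25.9-fold in mean RPM.

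**Figure D1:**
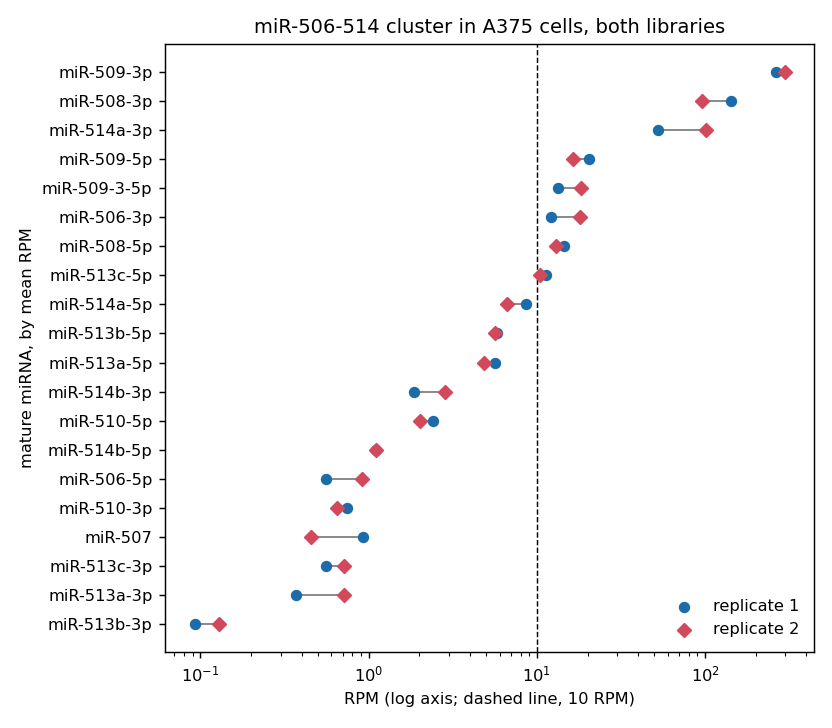
RPM of the 20 mature miRNAs of the cluster in replicate 1 (circles) and replicate 2 (diamonds) of DMSO-treated A375 cells, on a log axis, ordered by mean. The 8 names right of the dashed line at 10 RPM in both libraries run from miR-509-3p at 264 and 298 RPM down to miR-513c-5p at 11.3 and 10.4 RPM.

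Among the members hsa-miR-509-3p stood first in both libraries. It had 264 RPM (2855 reads) in replicate 1 and 298 RPM (4599 reads) in replicate 2, a mean of 281 ± 24.1 RPM, number 113 among all mature names. It alone held 48.6% of the cluster. RefSeq places its sequence in 3 hairpins, MIR509-1, MIR509-2 and MIR509-3, while its values stand in a single row, that of mir-509-1, so the yield of each hairpin was not resolved. By level in both libraries the non-members nearest to it were miR-589-5p at 259 ± 6.88 RPM, miR-501-3p at 280 ± 71.3 RPM and miR-106b-5p at 334 ± 11.6 RPM (Euclidean distances of 0.231, 0.248 and 0.365 in log2(RPM + 1) over 2 libraries).

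The next, hsa-miR-508-3p, has the same first 6 bases as miR-509-3p and another seed. It had 142 RPM (1533 reads) in replicate 1 and 95.8 RPM (1478 reads) in replicate 2. MiR-514a-3p had 52.8 RPM (571 reads) in replicate 1 and 101 RPM (1557 reads) in replicate 2. These 2 changed places between the libraries, and their ranges of mean ± SD, 119 ± 32.5 and 76.9 ± 34 RPM, overlapped, so their order was not resolved. Both stayed below miR-509-3p in each library. The names nearest in level to miR-508-3p were miR-592, miR-7974 and miR-455-5p, at distances of 0.190 to 0.201.

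The next member, miR-509-5p, was 4.18-fold below miR-514a-3p in mean RPM, a step of 2.60-fold in replicate 1 and 6.13-fold in replicate 2. It opened a group of 5 members between 18.4 and 10.9 RPM. MiR-509-5p averaged 18.4 ± 2.74 RPM, miR-509-3-5p 15.8 ± 3.51 RPM, miR-506-3p 15.1 ± 4.16 RPM and miR-508-5p 13.7 ± 1.03 RPM. Each of these 4 overlapped its neighbour among them in mean ± SD. MiR-506-3p, reported as a suppressor of epithelial-mesenchymal transition in ovarian cancer, had 12.2 RPM (132 reads) in replicate 1 and 18.1 RPM (279 reads) in replicate 2. The last of them, hsa-miR-513c-5p, closed the group at 10.9 ± 0.596 RPM, with 11.3 and 10.4 RPM, just above the minimum. Its lower 95% counting bounds, 9.37 and 8.89 RPM, lay below 10 RPM, so its place among the members at 10 RPM rests on few reads (122 and 161). The names nearest to it were let-7g-3p, miR-760 and miR-410-3p, at distances of 0.166 to 0.195.

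Just under the minimum stood miR-514a-5p at 8.60 and 6.68 RPM. With its copies summed, which may count reads more than once, it had a mean of 15.2 RPM, against 7.64 RPM, and 9 members passed 10 RPM. Next came miR-513b-5p at 5.82 and 5.64 RPM, and miR-513a-5p, reported to repress the immune ligand B7-H1 in bile duct cells, at 5.64 and 4.86 RPM. MiR-514b-3p at 1.85 and 2.85 RPM, miR-510-5p at 2.40 and 2.01 RPM and miR-514b-5p at 1.11 and 1.10 RPM followed. Close sequence relatives did not all stand at similar levels. MiR-514b-3p is 2 edits from miR-514a-3p and shares its seed, but averaged 2.35 ± 0.709 RPM, against 76.9 ± 34 RPM for miR-514a-3p. RefSeq places miR-514a-3p in 3 hairpins and miR-514b-3p in 1. The miR-513b-5p and miR-513c-5p pair, also 2 edits apart, differed less, at 5.73 ± 0.131 and 10.9 ± 0.596 RPM. The values of such near copies are uncertain, since the handling of mismatches was not stated.

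The 6 lowest members were near the limit of counting. MiR-506-5p had 6 and 14 reads, miR-510-3p 8 and 10, miR-507 10 and 7, miR-513c-3p 6 and 11, miR-513a-3p 4 and 11, and miR-513b-3p 1 and 2. For miR-513b-3p the exact 95% Poisson intervals were 0.00234 to 0.515 RPM in replicate 1 and 0.0157 to 0.468 RPM in replicate 2. The first 5 ranged from 0.541 to 0.731 RPM in the mean, with neighbouring ranges of mean ± SD overlapping, and their order was not resolved. MiR-507, whose hairpin is the next after MIR506, averaged 0.689 ± 0.333 RPM, against 15.1 ± 4.16 RPM for miR-506-3p.

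Most neighbouring hairpins differed in level, while MIR513B and MIR513A1 were close. Reads of copies possibly stood under a single hairpin, and 3 hairpins had no row. Going up in chromosome coordinates, the listed rows of MIR513C, MIR513B and MIR513A1 summed to 11.5, 5.84 and 5.79 RPM in the mean, MIR506 to 15.9, MIR507 to 0.689 and MIR508 to 132 RPM. MIR514B followed at 3.46, MIR509-3 at 15.8 (its 5p arm alone), MIR509-1 at 299, MIR510 at 2.90 and MIR514A1 at 84.4 RPM. Each of the 3 leading hairpins thus has a neighbour more than 10-fold lower on at least 1 side. MIR514A2 was listed with its 5p arm, at 7.64 RPM.

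**Figure D2:**
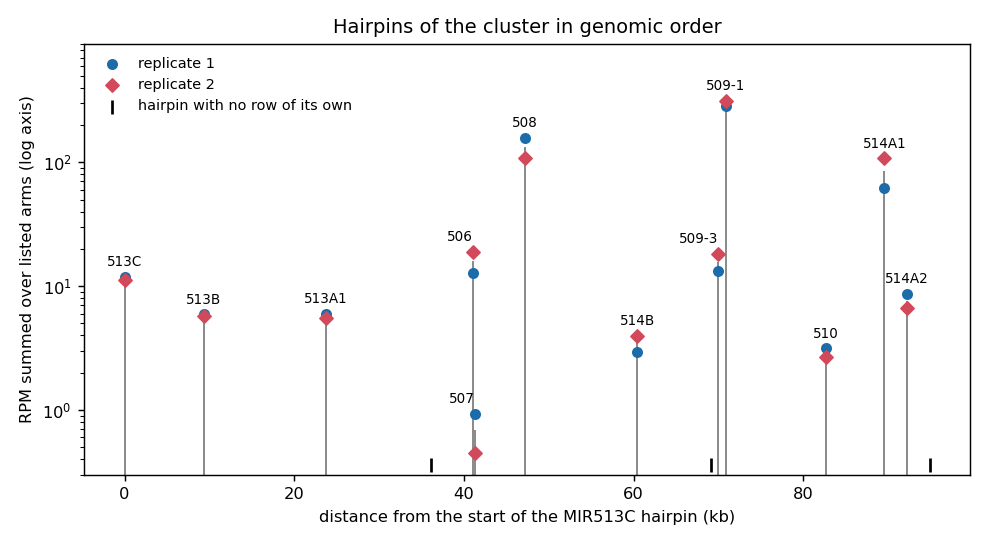
RPM summed over the listed arms of each hairpin (log axis) against its distance in kb from the start of the MIR513C hairpin, for replicate 1 (circles) and replicate 2 (diamonds), with ticks for the 3 hairpin genes without a row of their own. The high hairpins MIR508, MIR509-1 and MIR514A1 are interspersed with low ones such as MIR514B (3.46 RPM in the mean) and MIR510 (2.90 RPM). Reads of copies with the same mature sequence may stand under MIR509-1 and MIR514A1.

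Copies limit how far levels can be tied to loci. For 6 members RefSeq gives 15 places in hairpins, and the table held 7 rows for them. MiR-514a-5p had rows under 2 hairpins with nearly equal values, 93 and 101 reads for mir-514a-1 and 93 and 103 for mir-514a-2. Among all 1497 names, those with several hairpins numbered 45, and of their 94 rows 0 had a copy with equal values in both libraries. The MIR514A2 and MIR514A3 hairpins are identical over 88 bases, MIR509-2 is contained in MIR509-1, and MIR513A1 and MIR513A2 are 4 edits apart.

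The version of the 5p arm does separate miR-509 copies. MiR-509-5p, found in MIR509-1 and MIR509-2, had 20.3 RPM in replicate 1 and 16.5 RPM in replicate 2. MiR-509-3-5p, found in MIR509-3, had 13.3 and 18.3 RPM. The ratio of miR-509-3-5p to miR-509-5p was 0.655 in replicate 1 and 1.11 in replicate 2, so the libraries did not give the same order. Both versions have the seed ACUGCAG and together held 33.7 and 34.7 RPM.

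The arms were then compared, which asks which strand of each duplex accumulated. The higher arm was the 5p arm in the hairpins of miR-513a, miR-513b and miR-513c, and the 3p arm in the 4 hairpins with the highest sums. The 5p arms together held 14.9% of the cluster's RPM in replicate 1 and 13.3% in replicate 2, and the 3p arms 84.9% and 86.7%. Of 9 hairpins with both arms listed, the 5p arm was favoured in 3, the 3p arm in 4 and no arm in 2, where an arm was favoured if it was over 2-fold higher in each library on the scale of log2(RPM + 1). Among 257 hairpins outside the cluster at the lowest member's summed level or above, 47.9% favoured the 5p arm and 37.4% the 3p arm by this rule. No test of these shares was made, and 9 hairpins are few.

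In mir-509-1 the 5p arm had 20.3 and 16.5 RPM and the 3p arm 264 and 298 RPM, a log2 ratio of 5p over 3p of -3.87 ± 0.33 (SD, n = 2). With both 5p versions of miR-509 summed, the 3p arm was 7.84-fold higher in replicate 1 and 8.58-fold higher in replicate 2. In mir-508 the ratio was -3.0 ± 0.29, with 14.4 and 13.0 RPM for the 5p arm and 142 and 95.8 RPM for the 3p arm. The lower arms of both hairpins were themselves above 10 RPM, at the level of miR-506-3p.

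In mir-514a-1 the log2 ratio was -2.49 in replicate 1 and -3.76 in replicate 2, with 8.60 and 6.55 RPM for the 5p arm and 52.8 and 101 RPM for the 3p arm. The SD of 0.90 was the widest of the 9. In mir-506 the ratio was -3.20 ± 0.17, with 0.555 and 0.907 RPM for the 5p arm and 12.2 and 18.1 RPM for the 3p arm.

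The hairpins of the miR-513a, miR-513b and miR-513c names went the other way. The ratio was 2.86 ± 0.17 in mir-513c, 2.60 ± 0.06 in mir-513b and 2.03 ± 0.36 in mir-513a-1. With a pseudocount of 10 RPM in place of 1 RPM 0 of the 3 passed 2-fold in both libraries, with higher arms near or below 10 RPM. In reads the 5p arm of mir-513b had 63 and 87, and its 3p arm 1 and 2. The 6 names of this set together held 4.25% and 3.76% of the cluster. In mir-514b and mir-510 no arm was favoured on the scale of log2(RPM + 1). MiR-514b-5p had 1.11 and 1.10 RPM, against 1.85 and 2.85 RPM for miR-514b-3p. MiR-510-5p had 2.40 and 2.01 RPM, against 0.740 and 0.648 RPM for miR-510-3p, so without a pseudocount the 5p arm of mir-510 was 3.25-fold and 3.10-fold higher. That call depends on the pseudocount: with 0.1 RPM the mean log2 ratio of mir-510 was 1.54, against 0.92 with 1 RPM, and its 5p arm was favoured.

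**Figure D3:**
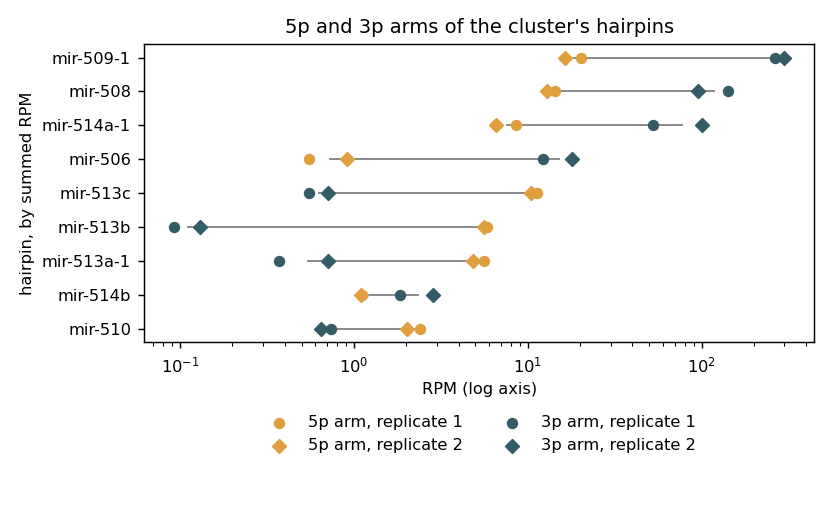
RPM of the 5p arm (orange) and 3p arm (dark blue-green) of the 9 hairpins with both arms listed, on a log axis, with circles for replicate 1, diamonds for replicate 2 and a line between the means. The 3p arm lies to the right in mir-509-1, mir-508, mir-514a-1 and mir-506, and the 5p arm in mir-513a-1, mir-513b and mir-513c. The 3p arm of mir-514b and the 5p arm of mir-510 also lie to the right, though neither was favoured on the scale of log2(RPM + 1).

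The 5′ ends of the arms, known to bear on which strand is kept, were counted next. Of the 5 member hairpins with a preferred arm and both sequences in RefSeq, 3 had equally many A or U among the first 4 bases of each arm and 2 had more in the lower arm. Among 185 such hairpins outside the cluster the higher arm had more in 49.2%, the arms were equal in 29.2% and the lower arm had more in 21.6%. The higher arm began with U in 4 of 5 member hairpins and in 62.2% of the others, and the lower arm in 5 of 5 and in 18.4%. These are counts over few hairpins with similar sequences, with no test.

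Grouped by seed, the 18 members with a sequence fell into 15 seeds, and 3 of the seeds occurred in a pair of members. The seed GAUUGGU (miR-509-3p) held 48.6% ± 1.86 of the cluster's RPM, GAUUGUA (miR-508-3p) 20.7% ± 6.61, UUGACAC (miR-514a-3p and miR-514b-3p) 13.6% ± 5.36 and ACUGCAG (both 5p arms of miR-509) 5.92% ± 0.149. The other pair, miR-513c-5p and miR-514b-5p with UCUCAAG, held 2.07% ± 0.203. No non-member with a sequence in RefSeq and a row in the table shared any of the 15 seeds. Within RefSeq, 3 of the seeds were matched to a non-member, which had no row in the table. These were ACUGCAG with miR-4418, UUUGCAC with miR-557 and AAAUUUC with miR-3606-3p. Sequences were at hand for 88.0% of the table's names, so a shared seed among the others was not looked for.

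The libraries were compared with each other as the measure of error. The 8 members at a mean of at least 10 RPM had a median absolute difference in log2(RPM + 1) of 0.36, against 0.25 for the 346 names in this range. Of the 8 members 0 were over 2-fold apart, against 1.73% of the 346. The median of all signed differences, replicate 2 minus replicate 1, was -0.10. MiR-514a-3p differed most, by 0.92, or 1.02 above that median, and with replicate 2 scaled by the median ratio it passed 2-fold, as did 4 names in all. Of the 346 names, 97.7% had a smaller absolute difference.

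The members did not shift the same way. MiR-508-3p differed by -0.56, with 91.0% of names differing less, miR-506-3p by 0.53, miR-509-3-5p by 0.43 and miR-509-3p by 0.18. MiR-509-5p, miR-508-5p and miR-513c-5p differed by -0.29, -0.14 and -0.10. Of the 8, 4 were higher in replicate 2 and 4 in replicate 1. The level of miR-514a-3p was thus 0.372 of that of miR-508-3p in replicate 1 and 1.05 times it in replicate 2.

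**Figure D4:**
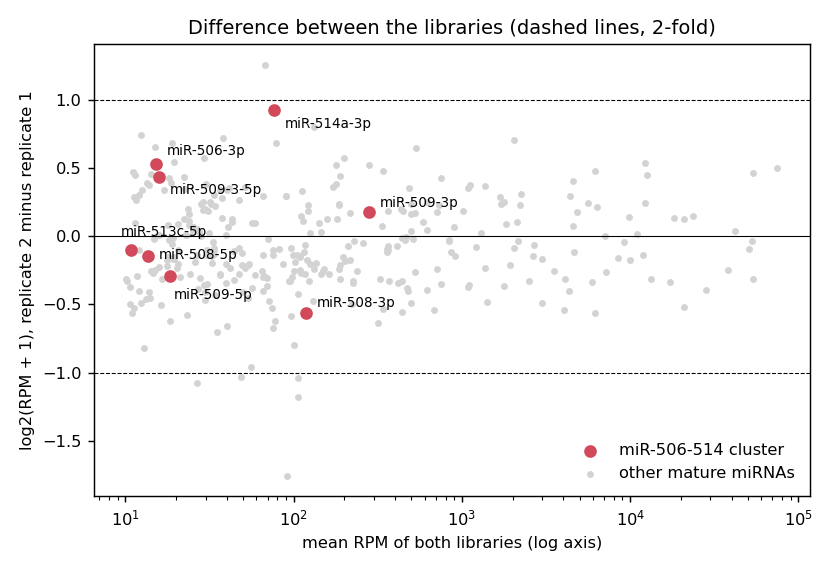
Difference between the libraries in log2(RPM + 1), replicate 2 minus replicate 1, against mean RPM (log axis) for 346 names with a mean of 10 RPM or more, with the 8 cluster members in red and other names in grey. The members lie on both sides of 0, with miR-514a-3p at 0.92 and miR-508-3p at -0.56 as the extremes, inside the dashed 2-fold lines.

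Counting error alone was smaller than these differences in 5 members. In Fisher's exact test on the recovered reads, two-sided and adjusted over 869 names by Benjamini-Hochberg, the adjusted p was 2.2e-42 for miR-514a-3p, 8.5e-26 for miR-508-3p, 1.8e-06 for miR-509-3p, 0.00074 for miR-506-3p and 0.0071 for miR-509-3-5p. These were 5 of the 19 members tested, beside 34.5% of all names with an adjusted p under 0.05. When over 2-fold was also asked, 0 members and 4.60% of all names were called. The test compares these 2 libraries and not conditions.

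Other testis-associated miRNAs were placed beside the cluster. The cluster of miR-105 and miR-767, within an intron of GABRA3 at a distance of 5.11 Mb on the same strand, is another X-linked group that many tumours and few normal tissues outside the germ line express. The members of the miR-506 to miR-514 cluster summed to 559 and 598 RPM, against 753 and 651 RPM for its 4 listed names, so the sum of the miR-105 and miR-767 names was 1.35-fold higher in replicate 1 and 1.09-fold higher in replicate 2. Its leader miR-767-5p, reported to repress the DNA demethylases TET1 and TET3, had 578 and 481 RPM, above miR-509-3p in both libraries. MiR-105-5p, reported as secreted by metastatic breast cancer cells, had 120 and 115 RPM, at the level of miR-508-3p.

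The miR-888 cluster, an epididymal group on the same strand, lies at least 1.16 Mb away. Its 3 listed names stood low: miR-891a-5p had 11 and 35 reads (1.64 ± 0.885 RPM), miR-892a 3 and 4, and miR-888-5p 0 and 4. They summed to 1.29 and 2.79 RPM, far below the members' sums. Of 10 listed testis or germ cell names elsewhere in the genome none reached 10 RPM in both libraries, beside 22.4% of all names. No test of this share was made, and 10 names are few. MiR-34c-5p came closest with 13.5 and 9.07 RPM, followed by miR-449a with 7.40 and 5.57 RPM, while miR-372-3p and miR-373-3p, found in germ cell tumours, had at most 10 reads.

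**Figure D5:**
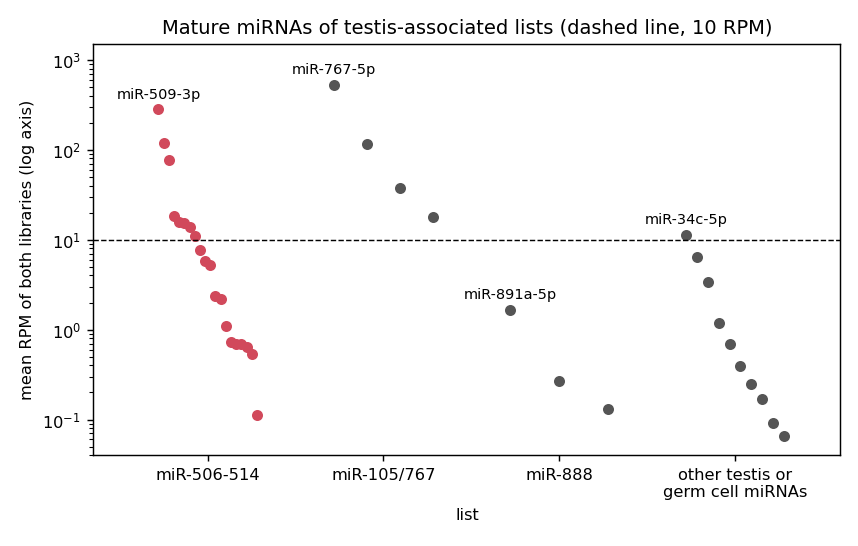
Mean RPM over both libraries (log axis) of each listed mature miRNA of the miR-506 to miR-514 cluster (red) and of 3 other testis-associated lists (grey), with a dashed line at 10 RPM. The 4 names of the miR-105 and miR-767 cluster lie above the line and the 3 of the miR-888 cluster below it. MiR-34c-5p lies above it in the mean but had 9.07 RPM in replicate 2.

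The labelled cell type was checked with miRNA markers. Of 7 melanocyte and melanoma markers 6 passed 10 RPM in both libraries, among them miR-204-5p, beside 22.4% of all 1497 names. MiR-211-5p, a miRNA of pigmented melanocytes, did not pass and stood at 0.277 and 0.130 RPM. Of the 6 testis and germ cell markers with a row 0 passed, with sums of 23.4 and 16.4 RPM. Epithelial markers (2 of 6 passed) summed to 52.7 and 68.2 RPM with miR-205-5p at 0.0924 and 0.0648 RPM. Of 3 neuronal markers, miR-9-5p and miR-128-3p summed to 1828 and 1997 RPM, and miR-124-3p had no row. The endothelial marker miR-126-3p had 24.8 and 25.9 RPM, and the liver, muscle and blood markers with a row (miR-122-5p, miR-133a-3p, miR-451a and miR-142-3p) were below 1 RPM. Their part in the values of the cluster was not tested.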

How the data were processed

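Small RNA libraries of 2 replicates of A375 cells were analysed. CASAVA 1.8 and cutadapt 1.2.1 were used per the submitters' processing notes. The aligner is not given in the sources used here, nor are the miRNA release or the handling of multiple matches and mismatches. The authors deposited RPM with decimal commas, 1 value per hairpin, mature name and library, as reads per 1000000 read assignments. Adapter ligation prefers certain ends, and levels of different miRNAs are therefore not molar ratios. Each column summed to 1000000, and 100% of values were whole multiples of the smallest within 0.01 reads, which gave 10816826 and 15428446 read assignments. Columns were matched to samples by their descriptions, with 0 other value columns.

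Each mature name took its highest copy, and a pseudocount of 1 RPM was used for log2. Calls needed a mean of 10 RPM and over 2-fold between the libraries. Fisher's exact test on recovered reads (scipy 1.17.1) covered names with 10 reads or more in sum, with 0.5 reads added for folds, and was tested on simulated data. Intervals cover counting error only, since PCR reads are not independent molecules. Sequences were matched by name to RefSeq and positions to GENCODE 29. The named miRNAs were all members, the listed names of the comparison lists, and the 3 names nearest in level to miR-509-3p, miR-508-3p and miR-513c-5p. The markers named and the motifs were chosen after values or sequences were seen. Members and lists were chosen with earlier results of these data known. Alternatives changed minima, pseudocounts, fold limits, copies, scaling, totals and replicates.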

Additional observations from a re-analysis of the deposited data

How the results depend on the processing

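With a minimum of 1 RPM 14 members passed in both libraries, beside 39.6% of all names, and with 100 RPM 1, beside 10.8%, in place of 8. With copies summed 9 passed, beside 22.6%, since miR-514a-5p had 15.2 RPM. The share of the cluster was 0.0586% with copies summed, which may count reads more than once, and 0.0821% with the most abundant miRNA left out of the total. With a pseudocount of 10 RPM 0 hairpins favoured the 5p arm, in place of 3, with 0.1 RPM 4, mir-510 among them, and at over 4-fold 2. With replicate 2 scaled by the median ratio of 1.07, 1 member, miR-514a-3p, was over 2-fold apart between the libraries, beside 4 of all names. Without that scaling 6 of all names were, 3 with a pseudocount of 10 RPM, 13 with no filter on low values and 40 in Fisher's exact test. Leaving out each replicate gave 8 members at 10 RPM, a share of 0.0720% to 0.0764%, 3 hairpins favouring the 5p and 4 the 3p arm, and 47.2% to 49.9% of the cluster for the seed of miR-509-3p. Of 155 alternative values 123 were counted as the same, 32 as moved and 0 as reversed. No paired analysis was possible because there is 1 group. Depth limits the 6 members below 1 RPM, where each had at most 14 reads in a library.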
